A study of Mus musculus with 12 samples.

Results

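The genes described here are 9 neighbours on mouse chromosome 1: AA986860, Fcamr, Pigr, Fcmr, Il24, Il20, Il19, Il10 and Mapkapk2. They were taken by gene symbol from a table of 47593 genes and were chosen by their measured levels in these same tumors, where Pigr, Fcamr and Il24 had been seen to differ widely between tumors. For that reason all levels below are descriptions, without a test. The measurement was RNA sequencing of 12 mammary tumors from 9 untreated mice, given as TPM, a level per transcript length that is scaled to a common total in each tumor. Of the mice, 7 gave 1 tumor each, tumors 3 and 4 came from 1 mouse, and tumors 10, 11 and 12 from another.

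All tumors belonged to 1 group and arose in MADM-mutant females, labelled with the MADM RG;GR alleles on a mixed background. MADM (mosaic analysis with double markers) uses Cre-driven exchange between chromosomes, so that a rare cell loses both Brca1 and p53 and turns green while its neighbours stay heterozygous. Here Cre was driven by MMTV-Cre, a mammary transgene that is also active outside the epithelium. The age at collection of each tumor was not given in the sources used here, and no normal gland or wild-type group was analysed here. Homogenized pieces of whole tumors were sequenced, so stroma and immune cells were included, and fewer cells of a type and less RNA per cell cannot be told apart.

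Pigr encodes the polymeric immunoglobulin receptor, which carries dimeric IgA and pentameric IgM bearing the J chain across an epithelium and, in the lactating mammary gland, into milk. Fcamr and Fcmr, its neighbours, encode further receptors that bind the Fc part of IgA or IgM. Il24, Il20, Il19 and Il10 encode related cytokines of the IL-10 family, which signal through paired receptors to JAK kinases and STAT factors. Mapkapk2, at the end of the row, encodes the kinase MK2, which acts below p38 MAPK and prolongs the life of many cytokine mRNAs.

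The row spans 365851 bp of GRCm38 (GENCODE vM21) and holds no other protein-coding gene. It opens with AA986860 (ENSMUSG00000042510, chr1:130731976-130744622, plus strand), also known as Sarg, a gene named for its regulation by androgen. Fcamr (ENSMUSG00000026415, chr1:130800902-130814740, plus strand) follows after 56279 bp, and Pigr (ENSMUSG00000026417, chr1:130826684-130852249, plus strand) 11943 bp further on. Fcmr (ENSMUSG00000042474, chr1:130865669-130880791, plus strand) lies 13419 bp beyond Pigr and only 1282 bp from Il24 (ENSMUSG00000026420, chr1:130882074-130887454, minus strand). Il20 (ENSMUSG00000026416, chr1:130906985-130911451) and Il19 (ENSMUSG00000016524, chr1:130932656-130940115) are also on the minus strand. Il10 (ENSMUSG00000016529, chr1:131019845-131024974, plus strand) and Mapkapk2 (ENSMUSG00000016528, chr1:131053700-131097826, minus strand) close the row, with gaps of 79729 bp between Il19 and Il10 and 28725 bp between Il10 and Mapkapk2.

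The promoters of Pigr and Fcamr are shown because these 2 genes stood furthest above the other tumors in a single one. Each sequence is the 250 bases before the RefSeq start on GRCm38.p6, plus strand, at chr1:130826434-130826683 for Pigr and chr1:130800652-130800901 for Fcamr. Capitals mark the motif matches found in a search of both strands.
Pigr: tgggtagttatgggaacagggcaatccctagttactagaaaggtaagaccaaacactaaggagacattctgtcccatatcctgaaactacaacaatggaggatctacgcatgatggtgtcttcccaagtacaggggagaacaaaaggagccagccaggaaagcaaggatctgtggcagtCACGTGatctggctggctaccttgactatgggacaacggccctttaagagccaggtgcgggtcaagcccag
Fcamr: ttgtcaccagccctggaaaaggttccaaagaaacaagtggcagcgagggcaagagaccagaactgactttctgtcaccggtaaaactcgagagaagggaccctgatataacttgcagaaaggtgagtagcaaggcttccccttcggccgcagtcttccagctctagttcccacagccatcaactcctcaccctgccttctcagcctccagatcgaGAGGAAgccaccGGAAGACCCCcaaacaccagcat
In the Pigr window the match was the E-box CACGTG, a binding site of USF factors, at position -71 from the start, and 6.02% of 32851 mouse promoter windows of this length held this motif. In the Fcamr window the matches were GAGGAA, an ETS-type core found in 23.3% of windows, at -35, and the NF-kB consensus on the minus strand, found in 7.25% of windows, at -23. No match to TTCNNNGAA, the STAT element (7.02% of windows), or GAAANNGAA, an interferon-type element (7.13%), lay in either window. Of the 9 members, 7 had a window in the RefSeq table, all but Il24 and Il10. The motifs matched in Fcamr were not particular to it. Fcmr and Il19 held both, and Mapkapk2 held GAGGAA. Il19 also held the STAT and interferon-type elements, and AA986860 and Il20 held no match. A match describes letters only and is not evidence of binding.

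Some tumors stood apart from the rest in ways that touch these genes. Tumor 2 was almost without epithelial transcripts, with Epcam, an epithelial adhesion molecule, at 0 TPM, Cdh1 at 0.116 TPM and Krt8 at 0.326 TPM, and it had the highest median of B lymphocyte markers, with Cd79a at 609 TPM. Tumor 8 was low as well, with Epcam at 2.03 TPM and Cdh1 at 3.77 TPM, against 239 to 1004 TPM and 82.7 to 302 TPM in the other 10. Both are labelled as mammary tumors like the rest, and the spread and correlations that rest on them most are also given without them. Each tumor summed to between 999770 and 999909 TPM and had 21415 to 23443 genes above 0. The table holds no read counts, so the sequencing depth behind a value is not known and counting error could not be worked out.

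The members did not share a pattern. Pigr and Fcamr were high in tumor 9 and near 0 elsewhere, Il24 was high in 7 tumors and near 0 in tumor 9, Mapkapk2 was present at a moderate level in every tumor, and the others stayed low. Of the 9 members, 8 reached 1 TPM in any tumor, and 3 of these 8 had their highest value in tumor 9, beside 14.9% of all 20659 genes that reached 1 TPM. At least 4-fold above the next tumor on the TPM + 1 scale in tumor 9 were 2 of the 8, beside 2.03% of all genes. Because these values chose the members, nothing is read from either count. Other members were highest elsewhere: Il24 in tumor 3, Il10 and Mapkapk2 in tumor 7, and AA986860 and Il19 in tumor 12.

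**Figure D1:**
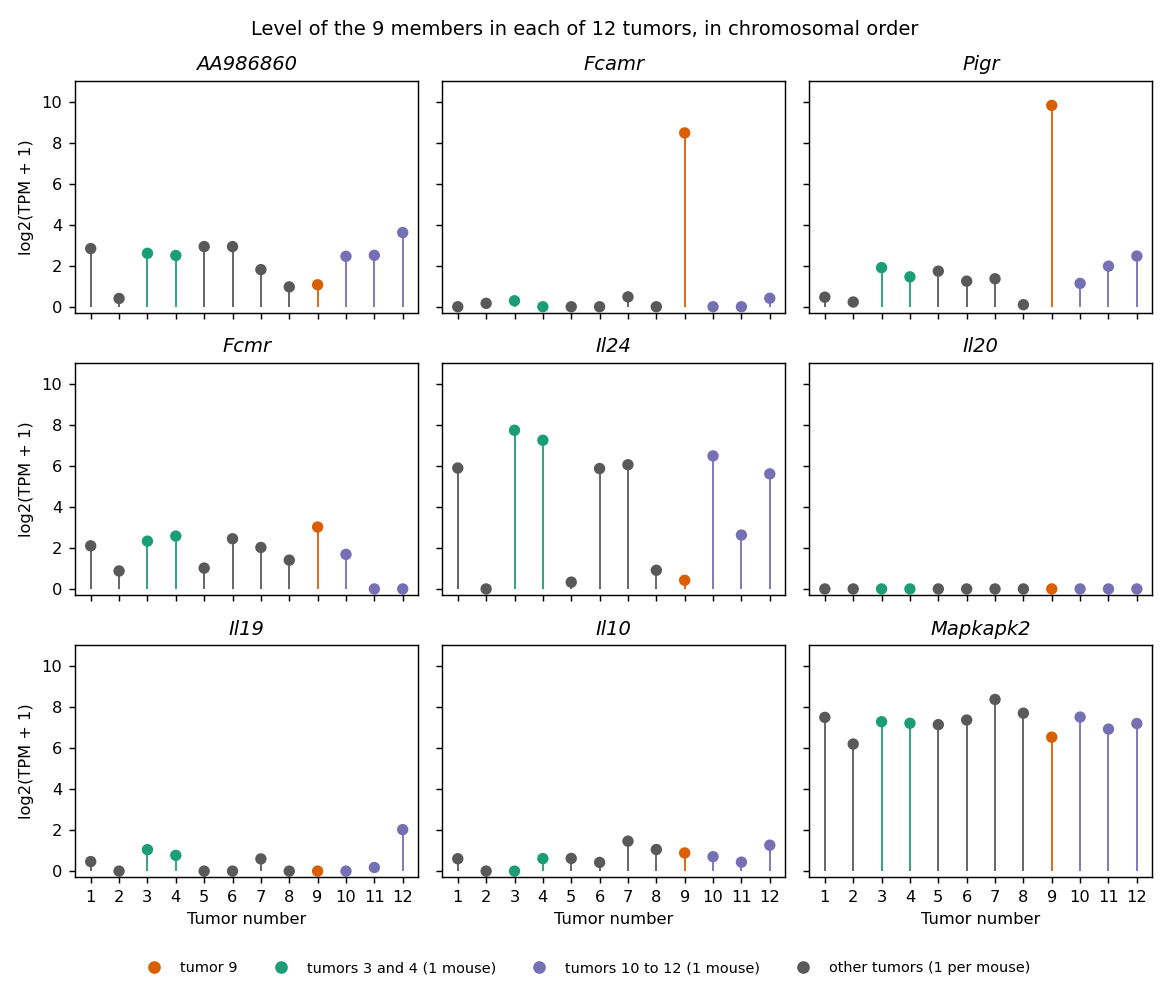
Level of each of the 9 members, in chromosomal order, on the log2(TPM + 1) scale (vertical axis) in tumors 1 to 12 (horizontal axis), 1 point per tumor, with color marking tumor 9 and the tumors that share a mouse. Pigr and Fcamr stand out in tumor 9 alone, Il24 is high in 7 tumors and low in tumors 2, 5, 8 and 9 with tumor 11 between, and Mapkapk2 is present in all 12.

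Pigr, the transcytosis receptor, reached 898 TPM in tumor 9. In the other single-tumor mice it stood at 0.383 TPM in tumor 1, 0.173 in tumor 2, 2.33 in tumor 5, 1.38 in tumor 6, 1.57 in tumor 7 and 0.0720 in tumor 8. In the mice with several tumors it stood at 2.75 TPM in tumor 3 and 1.75 in tumor 4, and at 1.20, 2.94 and 4.54 TPM in tumors 10, 11 and 12. Tumor 9 did not overlap the others, and its level was 198 times that of the next tumor, tumor 12, and 571 times the median of the other 11. The mean over mice was 101 ± 299 TPM (SD, n = 9) and, without the mouse of tumor 9, 1.38 ± 1.08 TPM (SD, n = 8). By level, Pigr was the 150th gene of tumor 9.

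Low as it was outside tumor 9, Pigr was not flat there. The 2 tumors poor in epithelial transcripts gave the lowest values, and the SD over the 8 mice was 0.71 on the log2(TPM + 1) scale, above that of 67.9% of the 16779 genes compared, and 0.51 over the 6 mice left without tumors 2, 8 and 9. Within the 3-tumor mouse Pigr differed on the same scale by 1.33 between tumors 10 and 12 and by 0.84 between tumors 10 and 11. Both differences were larger than the SD over the 8 mice. Smaller than that SD were the 0.49 between tumors 11 and 12 and, in size, the -0.45 of tumor 4 minus tumor 3. At these low levels differences may rest on few reads, the number of which is unknown.

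Fcamr, the receptor for the Fc part of IgA and IgM, followed the same outline at a lower level. It stood at 354 TPM in tumor 9 and was listed at 0 in 7 tumors. The other 4 gave 0.122 TPM in tumor 2, 0.224 in tumor 3, 0.396 in tumor 7 and 0.334 in tumor 12. Tumor 9 thus stood at 896 times the highest other value, and no fold is given against the tumors listed at 0. On the TPM + 1 scale Fcamr was 255-fold above the next tumor and had rank 6 among all genes highest in tumor 9, and Pigr, at 162-fold, rank 12. Without the mouse of tumor 9 the SD of Fcamr was 0.16 on the log2 scale, which values this close to 0 fix and which is no sign of a steady level.

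An antisense transcript, Gm15848 (ENSMUSG00000086706, chr1:130809977-130824084, minus strand), overlaps Fcamr by 4764 bp. Read on the minus strand, it begins 2599 bp from the start of Pigr, runs away from Pigr and ends within Fcamr. It is no member and was chosen after its values were seen. Its level was 167 TPM in tumor 9, 0.363 TPM in tumor 2 and 0 in the other 10 tumors. The libraries were made with a stranded kit, but whether reads were counted by strand is not given in the sources used here, so reads of Fcamr and Gm15848 cannot be told apart where they overlap. The other 4 noncoding genes inside the row stayed at or below 0.570 TPM.

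Fcmr, the IgM receptor of lymphocytes, was also highest in tumor 9, by a small margin. It measured 7.10 TPM there against 4.97 in tumor 4, the next, a ratio of 1.43, and it was listed at 0 in tumors 11 and 12. The mean over mice was 2.96 ± 2.14 TPM (SD, n = 9). B lymphocyte markers had a median of 18.3 TPM in tumor 9, with 1 of 5 highest there, below the 502 TPM of tumor 2, where Fcmr was only 0.834 TPM. T lymphocyte markers had their highest median, 14.2 TPM, in tumor 9 against 0.411 to 6.87 TPM elsewhere, and 4 of 5 of them were highest there, beside 14.9% of all genes. The part of these cells in the Fcmr level was not tested.

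Il24 encodes a cytokine that is made by keratinocytes and immune cells and acts on epithelia. Its level was 212 TPM in tumor 3 and 151 in tumor 4 of the same mouse, then 88.4 in tumor 10, 65.4 in tumor 7, 58.4 in tumor 1, 57.3 in tumor 6 and 47.7 in tumor 12. In tumor 11 it was 5.18 TPM, in tumor 8 0.878, in tumor 9 0.339, in tumor 5 0.258, and it was listed at 0 in tumor 2. The tumors thus formed a high set of 7 at 47.7 TPM or more and a low set of 4 under 1 TPM, with tumor 11 between them. Tumors 5 and 9 belonged to the low set with epithelial transcripts present, Cdh1 being 276 TPM in tumor 5 and 82.7 TPM in tumor 9 and Epcam 538 and 914 TPM. In tumor 9 the medians of the epithelial junction and luminal keratin genes had rank 10 of the 12.

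The mean of Il24 over mice was 45.7 ± 58.4 TPM (SD, n = 9), with a median over tumors of 52.5 TPM. On the log2(TPM + 1) scale its SD was 3.05, above that of 99.7% of genes, 3.01 without the mouse of tumor 9 and 2.47 over the 6 mice without tumors 2, 8 and 9. Wide variation of Il24 between mice therefore did not depend on tumor 9, in contrast to Pigr, whose SD fell from 2.98 to 0.71, and Fcamr, whose SD fell from 2.79 to 0.16. Sister tumors differed too. Tumor 11 minus tumor 10 was -3.86 on this scale, larger in size than the SD between mice, whereas tumor 4 minus tumor 3 was -0.49.

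Il20, Il19 and Il10, the other cytokines of the row, were scarce. Il20, which shares its receptors with Il24, was listed at 0 in all 12 tumors. Il19 was above 0 in 6 tumors, with a lowest value of 0, a median of 0.0648 and a highest value of 3.06 TPM in tumor 12, followed by 1.07 TPM in tumor 3. Il10, a cytokine that dampens macrophage and T cell responses, ranged from 0 in tumors 2 and 3 through a median of 0.531 to 1.75 TPM in tumor 7. In tumor 9 Il19 was listed at 0 and Il10 was 0.847 TPM. At these levels differences between tumors rest on few reads, the number of which is unknown.

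AA986860 was low in every tumor, from 0.323 TPM in tumor 2 through a median of 4.67 to 11.3 TPM in tumor 12, with a mean over mice of 4.00 ± 2.75 TPM (SD, n = 9). In tumor 9 it was 1.1 TPM, rank 10 of the 12, although it is the nearest protein-coding neighbour of Fcamr on the left. Mapkapk2 was the steadiest member with a moderate level, from 72.2 TPM in tumor 2 through a median of 150 to 329 TPM in tumor 7. Its mean over mice was 164.5 ± 74.1 TPM (SD, n = 9), its log2 SD of 0.63 was above that of 55.9% of genes, and tumor 9, at 91.3 TPM, was second lowest.

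By mean level over the 9 mice the order was Mapkapk2, Pigr, Il24, Fcamr, AA986860, Fcmr, Il10, Il19 and Il20. Neighbours in this order from Mapkapk2 to Il19 differed by less than the larger of their SDs, except Fcmr and Il10, and the order of those near 0 is uncertain. Without the mouse of tumor 9 the order changed to Mapkapk2 at 174 ± 73.6 TPM, Il24 at 51.3 ± 59.7, AA986860 at 4.36 ± 2.70, Fcmr at 2.44 ± 1.58, Pigr at 1.38 ± 1.08, Il10 at 0.659 ± 0.548, Il19 at 0.355 ± 0.433 and Fcamr at 0.0926 ± 0.135 TPM (SD, n = 8 each). In this order only Mapkapk2 and Il24 differed by more than the larger of their SDs.

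Whether the row moved together was described by the Pearson correlation of log2(TPM + 1) over mice for each pair of the 8 members listed above 0 in at least 3 tumors. All points share the scaling to the total of each tumor, and tumors of 1 mouse were averaged first. Over 9 mice the 28 pairs had a median r of 0.13, from -0.41 for Fcamr with Mapkapk2 to 0.98 for Pigr with Fcamr. As background, 13412 pairs of neighbouring protein-coding genes across the genome had a median r of 0.35, with quartiles of -0.03 and 0.65. The background pairs were adjacent genes with a mean of 1 TPM or more, whereas the members' pairs included genes further apart and genes near 0, so the values are side by side only.

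The value for Pigr and Fcamr was set by tumor 9. Without its mouse their r was 0.22 (n = 8), the median over pairs was 0.30 and 27 of the 28 pairs were above 0, against 19 of 28 with it. Without the mouse of tumor 2 as well 19 pairs were above 0, and by Spearman correlation without tumor 9 also 19, so the 27 rests on the mouse of tumor 2 and on the measure. Over the 8 mice the median for neighbours in general was 0.38. Leaving out the mouse of tumor 2, the tumor poor in epithelial transcripts, turned the median over pairs to -0.09, and leaving out the mice of both tumors gave 0.16. In the 8 mice without tumor 9, Pigr stood at r = 0.72 with AA986860 and 0.44 with Il24, where the 9-mouse values had been -0.21 and -0.28. Without tumors 2 and 8 as well these became -0.02 and -0.30 (n = 6), so the positive values rested on the 2 tumors poor in epithelial transcripts. Apart from Pigr with Fcamr, the highest r over 9 mice were those of Il24 with Il19, at 0.79, and Il10 with Mapkapk2, at 0.72. They were 0.76 and 0.90 without tumor 9, and 0.64 and 0.85 without tumors 2, 8 and 9. Next came AA986860 with Il24, at 0.63 with and 0.57 without tumor 9, but at 0.32 without tumors 2 and 9 and -0.38 without tumors 2, 8 and 9. Il24 with Fcmr, its nearest neighbour, stood at 0.33 over 9 mice and at 0.71 without tumor 9. Without tumors 2, 8 and 9 that pair stood at 0.66. The values of Il19 and Il10 behind their pairs lie near 0, and Fcmr did not exceed 7.10 TPM.

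**Figure D2:**
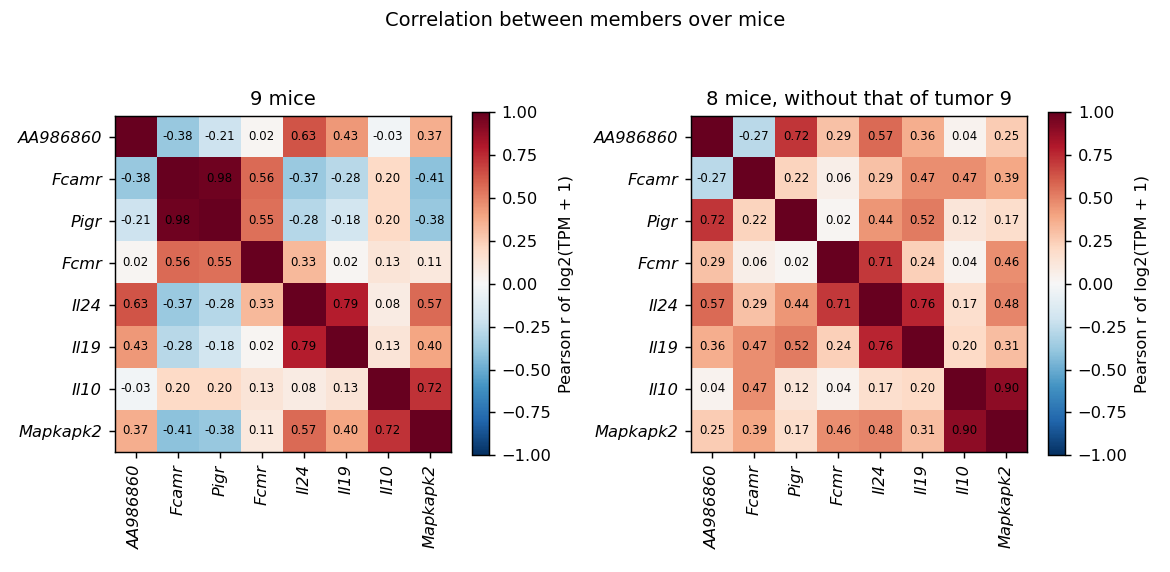
Pearson r of log2(TPM + 1) between members over 9 mice (left) and over the 8 mice without that of tumor 9 (right), with red for positive and blue for negative values and Il20 left out because it is listed at 0 throughout. The pair Pigr and Fcamr drops from 0.98 to 0.22, and the negative values of both with Il24 become 0.44 and 0.29.

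The genes next to the row were set beside it to see how far the high level in tumor 9 extended. Of the 10 nearest protein-coding genes on each side, 14 of 20 reached 1 TPM, 4 of these were highest in tumor 9 and 0 were 4-fold above the next tumor there, beside 14.9% and 2.03% of all genes, so a count of 0 among 14 says little. On the left, Pfkfb2, a glycolysis regulator next to AA986860, was 75.3 TPM in tumor 9 against 11.9 to 42.5 elsewhere. Cd55, a complement regulator, was 23.8 TPM against 0.312 to 16.7, and Cxcr4, a chemokine receptor, was 213.8 TPM against 19.4 to 94.2. On the right, Rassf5 was 27.1 TPM against 2.27 to 25.5.

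Next to Mapkapk2, Dyrk3, a kinase, was lower in tumor 9 than in every other tumor, at 2.18 TPM against 7.31 to 29.0, and Eif2d, a translation factor, was also lowest there at 35.5 against 45.0 to 108 TPM. Genes above and below the other tumors thus lay among each other along the region. Past the 10 right-hand neighbours, 2 genes chosen after their values were seen stood above the other tumors in tumor 9. Slc41a1, 1000.8 kb from the start of Pigr, was 206.9 TPM against 9.52 to 51.3, and Rab29, at 1040.5 kb, was 429.6 TPM against 14.7 to 29.5.

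**Figure D3:**
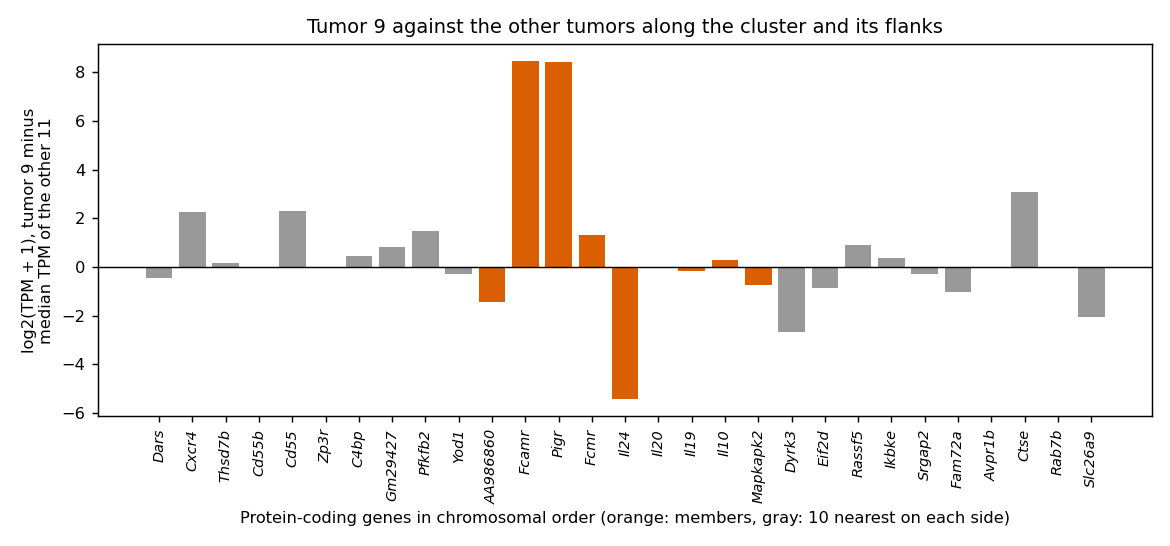
Bars show log2(TPM + 1) in tumor 9 minus log2 of 1 plus the median TPM of the other 11 tumors, for the members (orange) and the 10 nearest protein-coding genes on each side (gray), in chromosomal order but not to scale. Fcamr and Pigr stand at 8.47 and 8.45, Il24 at -5.45, and the genes on either side of the 2 receptors, AA986860 and Fcmr, at -1.44 and 1.33.

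The genes with a pattern most like that of Pigr, Fcamr or Il24 were taken from 16773 genes outside the row with a mean of 1 TPM or more. Over 9 mice the 5 most like Pigr were Olfr284, Ighv2-3, Gm9484, Gm9750 and Dsg1c, with r from 0.98 to 0.99, and Fcamr would have stood 34th. The 5 most like Fcamr were Dsg1a, Dsg1b, Gm37975, Fndc7 and Cacna2d3, with r rounding to 1.00. All 10 had their highest value in tumor 9, which the ranking fixes, since r with Pigr or Fcamr over 9 mice is set by that tumor. Dsg1a, a desmosomal cadherin of stratified epithelia, was 259 TPM there against at most 0.459 elsewhere, and Dsg1b was 221.0 against at most 0.198. The desmoglein genes are close copies, and the share of each in their reads is uncertain.

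In the 8 mice without tumor 9 the most similar genes were others. For Pigr these were Gm7367 (r = 0.98), Epha4 (0.97), Ttpa (0.96), Tmem238 (0.96) and Csn2 (0.96). They rest on Pigr values of at most 4.54 TPM. Csn2, the milk protein beta-casein, ranged from 0 TPM in tumor 2 to 127 TPM in tumor 12 among these tumors. In tumor 9, which this ranking did not use, Csn2 was 3323 TPM and Ttpa 14.6 TPM against at most 10.6 elsewhere. The other genes named were not highest there. Epha4 was 0.320 TPM in tumor 9 against up to 7.77, Gm7367 71.9 against up to 87.2 and Tmem238 12.8 against up to 17.2. The r of Csn2 with Pigr was 0.95 over the 6 mice without tumors 2, 8 and 9. Those mice are among the 8 in which Csn2 was picked, so this value is a description too. Fcamr ranked 7042nd for likeness to Pigr. For Fcamr itself the first 5 were AC124457.1, Scarna3a, Srsf6, Kif14 and Gm42595, all highest in tumor 7, and they rest on Fcamr values under 0.4 TPM.

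Il24 was most like the keratin genes Krt6a (r = 0.98) and Krt6b (0.97), whose proteins mark activated keratinocytes, and Rdh5 (0.98), a retinol dehydrogenase, followed by A630023A22Rik (0.95) and Atp5g3 (0.94). Without the mouse of tumor 9 the first 3 were the same genes, with 1700023F06Rik (0.97) and Slc25a13 (0.96) after them. Krt6a (ENSMUSG00000058354, chr15:101689910-101694307) was 109 TPM in tumor 3, 87.1 in tumor 1, 85.3 in tumor 4, 56.7 in tumor 7, 55.0 in tumor 12, 51.6 in tumor 6 and 49.4 in tumor 10. It was 5.40 TPM in tumor 11, 1.93 in tumor 9, 1.07 in tumor 5, 0.619 in tumor 8 and 0 in tumor 2. The same 7 tumors thus held the high values of both genes and the same 4 the low values, with tumor 11 between. Krt6a and Krt6b are close copies that lie side by side, so reads may be shared between them.

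Krt6a was picked for its likeness in these same mice, so the values without some of them are descriptions too. Its r was 0.99 (Spearman's rho 0.95) in the 8 mice without tumor 9 and 0.98 (rho 0.94) in the 6 mice without tumors 2, 8 and 9, of which only 1, that of tumor 5, was low. The points formed a high and a low cluster of mice, and r describes mainly that separation, since neither cluster held 6 mice in which it could be described alone. Within the 3-tumor mouse, whose tumors had been averaged for r, Il24 was 88.4, 5.18 and 47.7 TPM in tumors 10, 11 and 12 while Krt6a was 49.4, 5.40 and 55.0 TPM. Tumor 11 was the lowest of the 3 for both genes.

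**Figure D4:**
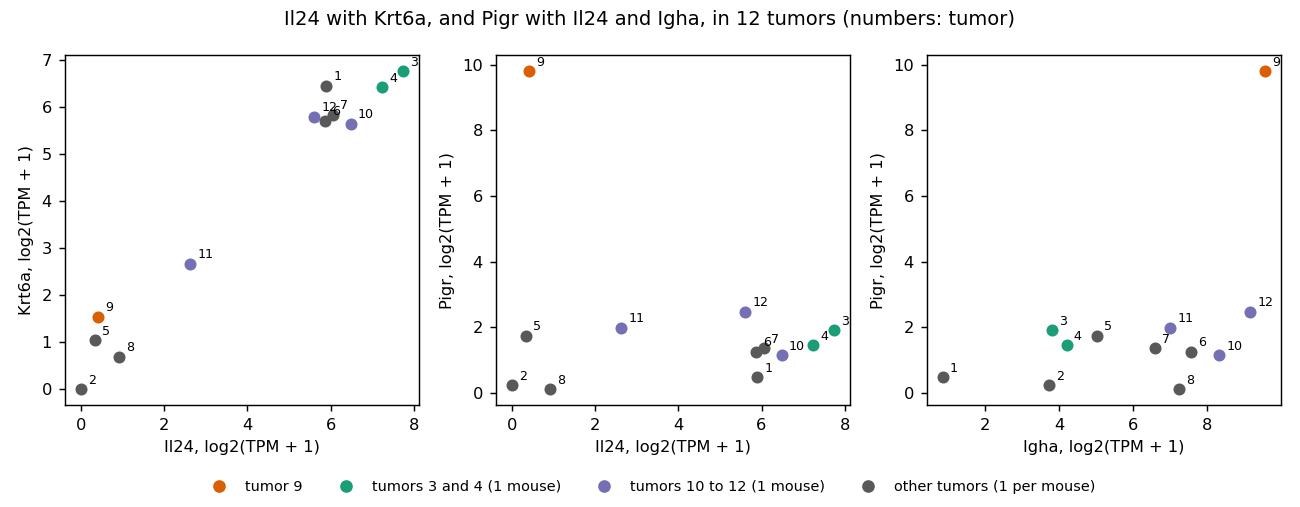
Each point is a tumor, numbered, on log2(TPM + 1) axes: Krt6a against Il24 (left), Pigr against Il24 (middle) and Pigr against Igha (right), with color marking tumor 9 and shared mice. Il24 and Krt6a are low together in tumors 2, 5, 8 and 9 and intermediate in tumor 11, while tumor 9 stands alone for Pigr in the other 2 panels.

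Skin markers moved little beside Il24. Krt1 was at most 0.356 TPM and Lor at most 1.23 TPM in any tumor, 3 of the 5 skin markers reached 1 TPM, and their summed level was 1.79 TPM in tumor 9 and 2.05 to 7.33 TPM in the others. Basal keratins varied more widely. Krt14, a keratin of basal and myoepithelial cells, was 1266 TPM in tumor 1, 912 in tumor 7, 717 in tumor 6, 431 in tumor 10, 318 in tumor 3, 258 in tumor 4 and 237 in tumor 12. It was 192 TPM in tumor 11, 93.3 in tumor 5, 87.9 in tumor 8, 11.1 in tumor 9 and 0 in tumor 2. The 5 lowest tumors for Krt14 were thus also the 5 lowest for Il24, though the order among the higher ones differed. Krt17, another basal keratin, did not share this, being 48.3 TPM in tumor 9 and 16.4 TPM in tumor 7, and Krt5 did not exceed 13.4 TPM. The part of basal or keratinocyte-like cells in the Il24 level was not tested.

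Other genes of the pathways were described from lists that were composed with earlier results of these data known. For the traffic of polymeric immunoglobulin, 11 of 11 genes reached 1 TPM, 3 were highest in tumor 9 and 0 were 4-fold above the next tumor, beside 14.9% and 2.03% of all genes. Igha, the IgA heavy chain and main cargo of Pigr, was 751 TPM in tumor 9, 573 in tumor 12, 321 in tumor 10 and 0.807 in tumor 1. Jchain, the J chain, was 138 TPM in tumor 9, 86.7 in tumor 10 and 82.6 in tumor 12, with a lowest value of 0.295 in tumor 1. Tumors 10 and 12 thus had abundant IgA transcripts with Pigr at 1.20 and 4.54 TPM. Rab25, a GTPase of apical recycling, was 218 TPM in tumor 9 against 207 TPM in tumor 6, the next.

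Ighm, the IgM heavy chain, was highest in tumor 2 at 2873 TPM, where Pigr, Fcamr and Fcmr were 0.173, 0.122 and 0.834 TPM, and was 221.5 TPM in tumor 9. The counts that follow stand beside the same 14.9% and 2.03% of all genes. Plasma cell markers had 1 of 5 genes highest in tumor 9, Jchain, and a summed level of 335 TPM there against 274 to 667 TPM in the others. That sum follows mainly Xbp1 and Sdc1, which were 304.5 and 329 TPM in tumor 6, where Mzb1 was 1.47 TPM. The list was mixed in tumor 9. Mzb1 was 16.3 TPM there, 209 TPM in tumor 2 and at most 7.11 TPM in the rest. Sdc1 was lowest in tumor 9, at 5.19 TPM against 17.2 to 329 elsewhere, and Xbp1 was 172 TPM against 42.3 to 387. Of the genes for recruitment and survival of antibody-secreting cells, 3 of 8 were highest in tumor 9, Madcam1 at 25.6 TPM, Tnfsf13 at 33.4 TPM and Ccr9 at 1.76 TPM, and 0 were 4-fold. Fcer2a, the low-affinity IgE receptor, was the single gene of 8 among the receptors for IgG and IgE that was 4-fold, at 5.17 TPM against at most 0.419.

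Of the known inducers and regulators of Pigr, 8 of 15 were highest in tumor 9 and 2 of 15 were 4-fold, beside 14.9% and 2.03% of all genes, and nothing is read from these counts for a list composed with these data known. The 2 were Relb, an NF-kB subunit, at 299 TPM against 7.21 to 64.7, and Nfkbia, the NF-kB inhibitor that is itself an NF-kB target, at 904 TPM against 76.3 to 223. Nfkb2 was 323 TPM against at most 149.5, Tnf 52.6 TPM against at most 22.8, and Stat5a 53.8 TPM against at most 51.1. Others of the list were low in tumor 9. Il1b was 10.2 TPM there against up to 204 TPM in tumor 8, and Prlr, the prolactin receptor, was 0.483 TPM against up to 23.4 TPM in tumor 3. Of the USF factors, which bind the E-box printed above, Usf1 ranged from 77.7 to 153.5 TPM and was highest in tumor 7, and Usf2 was highest in tumor 9, at 98.7 TPM against 37.3 to 74.4.

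Receptors for the cytokines of the row were measured in all tumors. In the IL-10 family list 9 of 14 genes reached 1 TPM, 3 were highest in tumor 9 and 0 were 4-fold, beside 14.9% and 2.03% of all genes. Il20rb, the shared chain for Il19, Il20 and Il24, ranged from 0.537 TPM in tumor 2 to 30.1 TPM in tumor 12. Its partners were low, with Il20ra at most 2.21 TPM in tumor 3 and Il22ra1 at most 1.49 TPM in tumor 9. Il10ra and Il10rb, the chains of the Il10 receptor, reached 50.1 TPM in tumor 8 and 110 TPM in tumor 9.

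Genes of JAK and STAT signalling were uneven in tumor 9. Stat3, which acts below Il24 and Il10 receptors, was 22.8 TPM in tumor 2 and 141 to 447 TPM in the others, with 265 TPM in tumor 9. Its target Socs3, a feedback inhibitor, was 17.3 TPM in tumor 9 and 1.76 TPM in tumor 2 against 75.1 to 360 TPM in the other 10. Socs1, another feedback inhibitor, was highest in tumor 9, at 57.5 TPM against at most 22.2 TPM elsewhere.

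Around Mapkapk2, 12 of 12 genes of the p38 and MK2 pathway reached 1 TPM and 0 were highest in tumor 9, beside 14.9% of all genes. Mapk14, the main p38 kinase, stayed between 57.0 and 87.0 TPM. Zfp36, an mRNA decay factor that MK2 restrains, ranged from 13.3 TPM in tumor 2 to 47.9 TPM in tumor 12. Hspb1, a small heat shock protein and MK2 substrate, was 7.82 TPM in tumor 9 and 2.72 TPM in tumor 2, against 118 to 526 TPM in the other 10. Mapkapk2 was likewise lowest in tumors 2 and 9, although by far less.

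Marker lists were also set beside Pigr and Fcamr. M cells belong to the follicle-associated epithelium, a lining that covers mucosal lymphoid tissue. All 8 genes of the list for this lining were highest in tumor 9 and 6 of 8 were 4-fold, beside 14.9% and 2.03% of all genes. The list was composed with these data known, so nothing is read from these counts. Among its genes were Spib, an ETS factor, at 4015 TPM against at most 67.4 and Gp2 at 4.56 TPM against 0. Milk genes were uneven there, with Csn2 at 3323 TPM and Csn1s1 at 1855 TPM highest in tumor 9 but Csn3 at 26.5 TPM against up to 2236 elsewhere, 2 of 6 in all. Epithelial junction genes had a median of 167 TPM in tumor 9, rank 10 of the 12, and luminal keratins one of 562 TPM, also rank 10, with 0 of 6 and 0 of 3 highest there.

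Markers of other epithelia that can carry Pigr were mixed. The intestinal genes Cdx2, Muc2 and Fabp2 were at 0 in all 12 tumors, while Vil1 was highest in tumor 9 at 11.5 TPM, 1 of 2 genes of the list that reached 1 TPM. The summed level of the intestinal list was 11.7 TPM in tumor 9 against 0.158 to 24.9 TPM elsewhere, the highest being Lgr5 alone in tumor 2. Of the salivary and lacrimal genes, Smr3a, Prol1 and Dcpp1 were at 0 in tumor 9, Prol1 in every tumor, while Aqp5 was 14.7 TPM, Amy1 5.91 TPM and Bhlha15 1.33 TPM. The summed level of that list was 22.0 TPM against 0.765 to 1205 TPM elsewhere, and its high end was nearly all Aqp5. Aqp5 ranged from 0 to 1196 TPM in the other tumors, with a median of 530 TPM. Of the list, 0 of 4 were highest in tumor 9, beside 14.9% of all genes. Macrophage markers had 0 of 5 highest there and a summed level of 461 TPM against 77.6 to 812 TPM. The part of the M cell, milk or lymphocyte genes in the levels of Pigr and Fcamr was not tested, and with 1 tumor of this kind these high levels had no replicate.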

How the data were processed

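RNA of 12 tumors from 9 mice was sequenced after poly(A) selection with a stranded kit. The deposited values are TPM per Ensembl gene, which the authors made by alignment to GRCm38 with HISAT and quantification with StringTie 2.1.6, without pooling tumors. TPM holds no depth, so no count model or counting interval was used. On GENCODE vM21, 47137 of 47593 genes were placed, and 17230 genes were at 0 in all tumors.

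Means ± SD were taken over mice, after averaging tumors of 1 mouse. Logarithms are log2(TPM + 1), with a pseudocount of 1. A gene was called high in a tumor when it reached 1 TPM in any tumor and stood at least 4-fold above the next tumor on TPM + 1. Calculations used Python 3.11.15, numpy 2.4.6, pandas 2.3.3 and matplotlib 3.10.9, and the functions were tested on artificial tables. RefSeq windows of 250 bases were searched on both strands.

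The members and the gene lists were chosen with earlier results of these data known. Named genes were the members, the genes of the lists, the 10 nearest protein-coding genes on each side and the 5 genes most like Pigr, Fcamr or Il24 by Pearson r, with and without the mouse of tumor 9. Genes outside this rule are said to be so, and not every gene of the lists is reported here. No comparison was tested, and Dixon's criterion was used only to pick values far from the others. Alternatives were a pseudocount of 0.1, a 10-fold limit, other filters, single tumors as units, Spearman correlation, TPM without mitochondrial genes and leaving out each mouse. Leaving out the mice of tumors 2, 8 and 9 was added after seeing the data.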

Additional observations from a re-analysis of the deposited data

Results flagged for a closer look

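Of 8 member genes examined over the 9 mice on the log2(TPM + 1) scale, 2 had a value far from the others by Dixon's criterion, which picks about 1 group in 20 by chance. Pigr was 9.81 in the mouse of tumor 9 and 1.86 in the next mouse. Fcamr was 8.47 in the same mouse and 0.48 in the next. Gap over range was 0.819 for Pigr and 0.943 for Fcamr, both above the 95% critical value. Both values come from tumor 9, so they are not independent of each other, and both genes were chosen on them, which makes the criterion a description here.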

How the results depend on the processing

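The median r over member pairs was 0.13 and ranged from 0.11 to 0.22 with a pseudocount of 0.1, other filters on the members, single tumors as units, Spearman correlation or TPM without mitochondrial genes. Leaving out each mouse in turn gave -0.09 (without tumor 2) to 0.30 (without tumor 9), with a jackknife standard error of 0.30, and 0.16 without both, an alternative chosen after seeing the data. The count of members high in tumor 9 was 2 under each alternative run. The share of all genes high in tumor 9 moved from 2.03% to 0.649% at a 10-fold limit and lay between 1.38% and 2.94% under the others. Without tumor 9 the mean level of Pigr went from 101 to 1.38 TPM and that of Fcamr from 39.4 to 0.0926 TPM. Without tumors 2, 8 and 9, r of Pigr with AA986860 was -0.02, against 0.72 without tumor 9 alone. The order of levels near 0 is uncertain, because TPM holds no read numbers. No paired analysis was possible because there was 1 group and no test.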
